A study of Homo sapiens with 23 samples.

Results

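The contractile actin cytoskeleton genes TAGLN, TAGLN2, ACTA2, ACTN1, MYL9, TPM1, TPM2, CALD1, CNN2 and CNN3 were followed across an ErbB2-engineered and an unmodified mammary epithelial line in 3D and 2D culture. Probes were chosen by gene symbol in the platform annotation. The 10 genes had 22 of the 48803 probes on the array, and 20 of these were among the 17689 probes with a detection p under 0.05 on at least 5 arrays. TAGLN probe 3 (ILMN_1706783) and MYL9 probe 2 (ILMN_1776953) were not, and every gene kept at least 1 detected probe. Probes of a gene are numbered from the brightest to the dimmest.

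RNA was measured on 23 Illumina bead arrays, 1 array per sample, after column extraction and biotin labelling. MCF10A cells are human breast epithelial cells that grow indefinitely but form no tumours. There were 6 arrays of MCF10A/ErbB2* cells (ErbB2*) in 3D culture, 5 of unmodified MCF10A cells (WT) in 3D, 6 of ErbB2* 2D and 6 of WT 2D. The ErbB2* construct, its promoter and the 3D medium are not described in the labels. All 4 groups share the MCF10A background, and there is only 1 engineered line, so what the engineered gene does and what else sets the lines apart cannot be told apart. The labels do not state whether replicates are separate cultures, and p-values therefore reflect only the spread of these samples, possibly a technical one. How precise the values are is limited by how many arrays each group has.

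Actin filaments, nonmuscle myosin II and the proteins that bundle, coat and regulate them form the stress fibres and cortical cables with which a cell pulls on its surroundings. Alpha-actinin crosslinks the filaments, tropomyosins coat them, and caldesmon, calponins and transgelins bind along them, while phosphorylation of the myosin light chain switches the motor on. In the breast, high levels of smooth muscle actin, transgelin, calponin and tropomyosin mark the contractile myoepithelial layer, and many of these genes are targets of serum response factor and its myocardin-related coactivators.

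On 22 arrays the mean probe signal was 333.6 to 581.6 units and 30.9% to 34.6% of probes were detected. WT 3D replicate 5 stood apart, with a mean of 150.6 and 19.1% detected, and its cell line field names ErbB2* while its title, source and description name WT in 3D. It was kept in WT 3D, and results are given with and without it. In its scanner signals the 20 member probes lay between -6.15 and 4.22 log2 units from the mean of WT 3D replicates 1 to 4, with 7 of them more than 1 unit away. In the authors' deposited normalised values of the same array they lay between -0.124 and 0.266 units from that mean, with 0 more than 1 unit away. The rank correlation of its deposited and scanner values was 0.503, against 1.000 on the other arrays. With the scanner signals of the other 22 arrays its deposited values correlated at 0.722 to 0.743, so its deposited and scanner columns do not match. Why they differ was not tested. The epithelial label was checked through the basal keratin KRT5, which averaged a log2 signal of 11.96 in ErbB2* 3D, 12.53 in WT 3D, 11.65 in ErbB2* 2D and 12.65 in WT 2D. The only ERBB2 probe among the tested ones gave 8.04, 8.36, 8.67 and 8.68 in the same order. ERBB2 did not pass the test between the lines (2D: -0.0044, adjusted p = 0.995; 3D: -0.32, adjusted p = 0.0781), and the position of the probe relative to the construct was not examined.

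**Figure D1:**
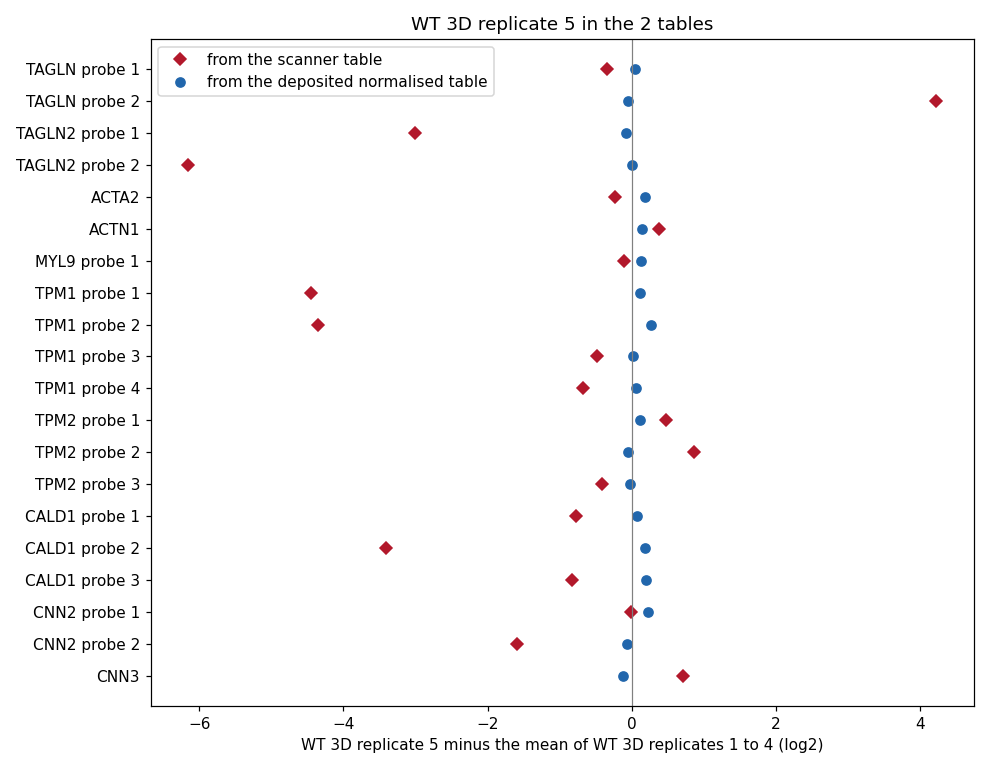
Log2 difference of WT 3D replicate 5 from the mean of WT 3D replicates 1 to 4 for each of the 20 detected probes, from the scanner signals and from the deposited values. The scanner points run from -6.15 to 4.22 and the deposited points stay between -0.124 and 0.266.

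TAGLN, ACTA2 and CNN3 each passed the test in 3 or more of 5 comparisons. TAGLN was highest in WT 2D and was lower in 3D culture and in ErbB2* cells in 2D. CNN3 ran in the same order with smaller differences. ACTA2 was highest in ErbB2* 3D, about 2.08-fold above WT 3D. CNN2 was lower in ErbB2* cells in both cultures. TPM1 was higher in 3D in both lines and lower in ErbB2* cells once WT 3D replicate 5 was left out. No TAGLN2 difference passed with all 23 arrays. Values below are normalised log2 signals, on which a difference of 1 is a doubling. They describe 1 probe each, and levels are not set between probes. Bulk signals cannot tell fewer cells of a kind from less RNA per cell.

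**Figure D2:**
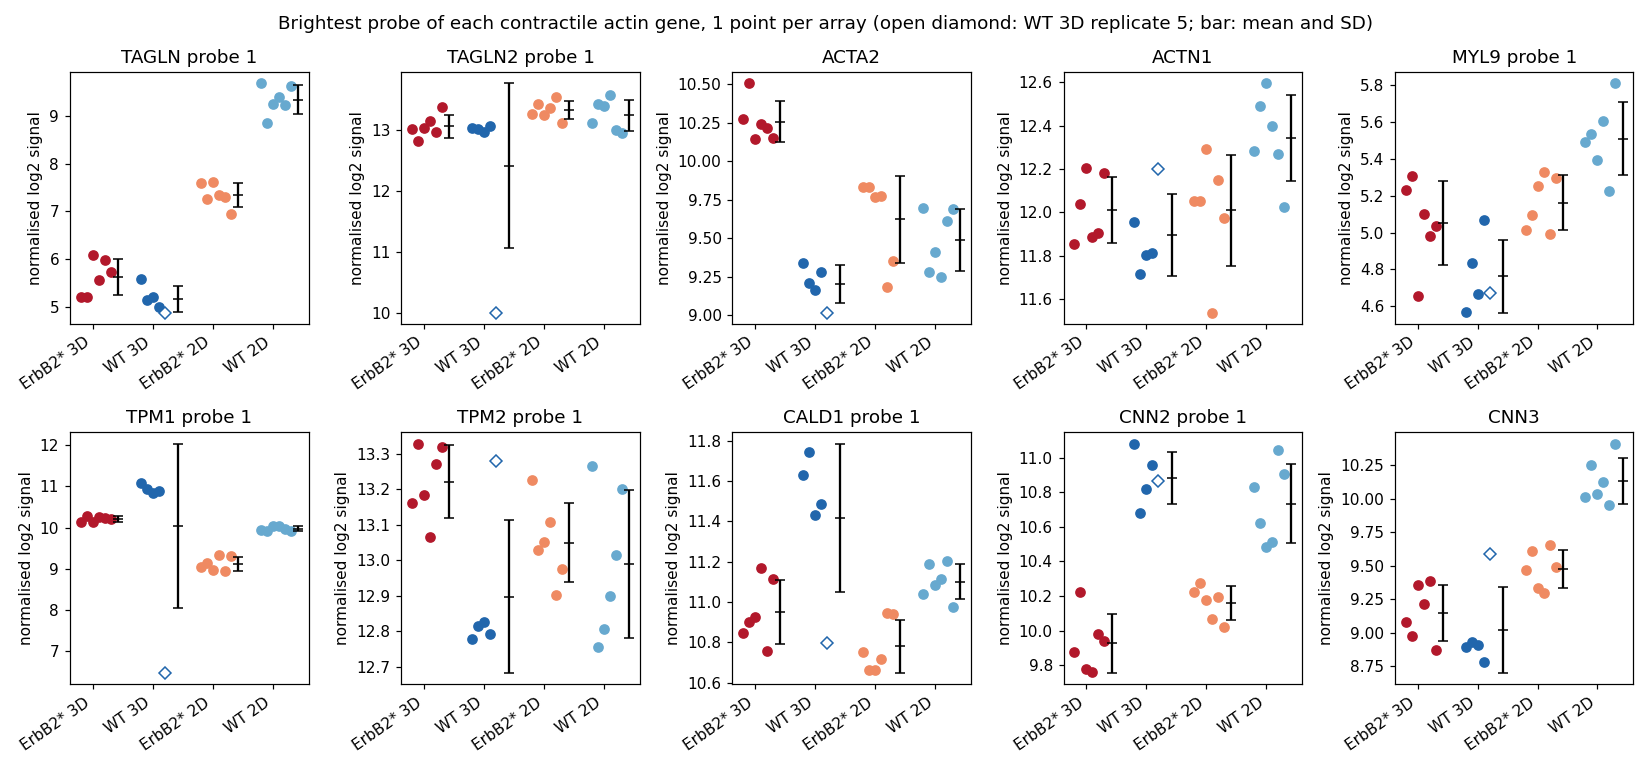
Normalised log2 signal of the brightest detected probe of each of the 10 genes, 1 point per array, in ErbB2* 3D, WT 3D, ErbB2* 2D and WT 2D, with the mean and SD of each group. The open diamond is WT 3D replicate 5. Each panel has its own axis. TAGLN spans 4.88 to 9.69, and all 6 ErbB2* 3D arrays lie above all 5 WT 3D arrays for ACTA2.

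Promoters were examined because many contractile genes carry known control elements near the start of transcription. The RefSeq tables (GRCh38.p14) held 19 promoter windows of 8 of the genes (not TAGLN or MYL9), each with 250 bases before and 50 after a start. A CArG box, the element that serum response factor binds, was counted only as the exact pattern CCWWWWWWGG, where W is A or T. The pattern was in 2 of the 19 windows, against 454 of 35116 promoters (1.29%). An MCAT element (CATTCC on either strand), which TEAD factors bind, was in 5 of the 19, against 4928 of 35116 (14.03%). Below are the CNN2 and ACTN1 windows with a CArG box and the ACTA2 and CNN3 windows with an MCAT element. The CArG windows are the only 2 with the exact pattern, and ACTA2 and CNN3 each passed in 3 of the 5 comparisons. Each is written 5′ to 3′ on the gene's strand with the elements in capitals.
CNN2, chr19:1026358-1026657, plus strand: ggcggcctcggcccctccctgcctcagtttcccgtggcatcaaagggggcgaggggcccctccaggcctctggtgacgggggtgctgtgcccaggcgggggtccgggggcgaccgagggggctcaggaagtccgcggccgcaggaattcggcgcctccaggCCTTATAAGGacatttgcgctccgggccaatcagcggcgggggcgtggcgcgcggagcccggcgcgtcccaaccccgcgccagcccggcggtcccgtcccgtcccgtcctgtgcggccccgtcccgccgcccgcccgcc
ACTN1, chr14:68977517-68977816, minus strand: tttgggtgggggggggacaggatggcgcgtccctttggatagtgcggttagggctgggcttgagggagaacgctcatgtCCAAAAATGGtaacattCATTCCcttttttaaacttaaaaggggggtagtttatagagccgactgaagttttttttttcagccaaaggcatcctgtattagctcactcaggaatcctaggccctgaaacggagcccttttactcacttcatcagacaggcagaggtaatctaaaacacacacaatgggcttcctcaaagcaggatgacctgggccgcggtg
ACTA2, chr10:88952724-88953023, minus strand: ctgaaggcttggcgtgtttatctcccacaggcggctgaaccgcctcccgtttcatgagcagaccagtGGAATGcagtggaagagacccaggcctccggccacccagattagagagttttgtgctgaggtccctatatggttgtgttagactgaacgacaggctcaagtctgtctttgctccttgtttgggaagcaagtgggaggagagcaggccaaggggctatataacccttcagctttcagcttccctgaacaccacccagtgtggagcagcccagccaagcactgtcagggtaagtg
CNN3, chr1:94925720-94926019, minus strand: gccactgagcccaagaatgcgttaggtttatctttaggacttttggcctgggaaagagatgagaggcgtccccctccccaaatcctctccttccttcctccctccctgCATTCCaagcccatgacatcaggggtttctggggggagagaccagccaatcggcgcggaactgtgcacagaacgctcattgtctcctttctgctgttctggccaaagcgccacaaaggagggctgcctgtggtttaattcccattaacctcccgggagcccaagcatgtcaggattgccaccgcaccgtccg
The CNN2 box began at position -89 from the start and the ACTN1 box at -171. The ACTN1 window also held an MCAT element at -154, which did not overlap the box. The ACTA2 element, which reads as its reverse complement here, began at -183 and the CNN3 element at -142. The other MCAT elements were in CALD1 windows, chr7:134745217-134745516 at -42 and chr7:134779384-134779683 at -194, both on the plus strand. No TAGLN2, TPM1 or TPM2 window held either element in these bases. The ACTA2 window also holds ccctatatgg and ccttgtttgg, which differ from the CArG pattern by a base each and were not counted. Such near matches were not searched for in the other windows. A match is a description of the letters only.

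TAGLN encodes transgelin (SM22), an actin-binding protein of smooth muscle, myoepithelium and activated fibroblasts. Its brightest probe (ILMN_1778668) gave 5.20, 5.20, 6.07, 5.56, 5.97 and 5.72 in ErbB2* 3D, against 5.58, 5.13, 5.20, 4.98 and 4.88 in WT 3D. The 2D values were 7.60, 7.26, 7.61, 7.35, 7.30 and 6.95 in ErbB2* cells, against 9.69, 8.86, 9.25, 9.39, 9.23 and 9.63 in WT cells. Every 3D array lay below every 2D array, the ErbB2* and WT 2D arrays did not overlap, and the 3D groups overlapped. In WT 3D the probe was detected above background on 2 of 5 arrays, in each other group on 6 of 6.

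In 2D TAGLN was 3.99-fold lower in ErbB2* cells (a log2 change of -1.998 with an SE of 0.174, adjusted p = 1.06e-08). In 3D the difference between the lines was 0.47 (SE 0.182, adjusted p = 0.0818), which did not pass. From 2D to 3D culture TAGLN fell by 1.72 in ErbB2* cells (SE 0.174, adjusted p = 1.07e-07). In WT cells it fell by 4.19 (SE 0.182, adjusted p = 7.17e-14), a fit that rests on a WT 3D group near background. The fall was smaller in ErbB2* cells, with an interaction of 2.47 (SE 0.252, adjusted p = 2.78e-07). Without WT 3D replicate 5 these differences were -2.003, 0.41, -1.74, -4.15 and 2.41. The sizes were smaller in another source of the values, as the authors' deposited values gave TAGLN probe 1 differences of -1.29 between the lines in 2D, -0.58 for culture in ErbB2* cells, -1.94 for culture in WT cells and 1.36 for the interaction, all past the threshold.

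TAGLN probe 2 gave 5.31, 5.33, 5.47, 5.09, 4.87 and 4.75 in ErbB2* 3D and 4.98, 4.78, 4.91, 4.94 and 9.12 in WT 3D. It gave 5.54, 5.01, 5.62, 5.51, 5.36 and 5.66 in ErbB2* 2D and 7.76, 7.13, 7.31, 7.94, 7.73 and 7.17 in WT 2D. The value of 9.12 was WT 3D replicate 5, the only WT 3D array on which the probe was detected. In 2D it was lower in ErbB2* cells by the same measure as probe 1 (-2.06, SE 0.488, adjusted p = 0.00618; -0.71 in the authors' deposited values). In WT cells the 3D level was lower than the 2D level with all arrays (-1.76, SE 0.512, adjusted p = 0.0155; -0.83 in the authors' deposited values), a call lost without background correction (-0.69). Without replicate 5 the WT 3D arrays were all below background, and the level was at least 5.00-fold lower than in WT 2D (adjusted p = 2.87e-11). The probes disagreed in ErbB2* cells, where probe 2 gave a culture difference of -0.31 (adjusted p = 0.77) near its background. The interaction of probe 2 passed only without replicate 5 (1.45, adjusted p = 0.217 with all arrays, and 2.32, adjusted p = 7.5e-08, without).

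TAGLN2, the more widely expressed transgelin, had 2 bright probes. Probe 1 (ILMN_2090105) gave 12.83 to 13.38 in ErbB2* 3D (median 13.04), against 13.03, 13.02, 12.98, 13.06 and 10.01 in WT 3D. Its 2D arrays gave 13.11 to 13.54 in ErbB2* cells (median 13.32), against 12.96 to 13.58 in WT cells (median 13.25). In each comparison the groups overlapped. Probe 2 ranged from 10.45 to 11.57 on 22 arrays and was 4.65 in WT 3D replicate 5. With all 23 arrays no TAGLN2 difference passed in any of the 5 comparisons. Without replicate 5 probe 2 was lower in 3D than in 2D in ErbB2* cells (-0.44, adjusted p = 0.0206), where probe 1 gave -0.27 (adjusted p = 0.0756). Between the lines without replicate 5 the 95% interval of probe 1 ran from -0.147 to 0.315 in 2D and from -0.219 to 0.298 in 3D.

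ACTA2 encodes smooth muscle alpha-actin, the actin isoform of myoepithelial cells and myofibroblasts. Its probe (ILMN_1671703) gave 10.27, 10.51, 10.14, 10.24, 10.22 and 10.15 in ErbB2* 3D, against 9.34, 9.21, 9.16, 9.28 and 9.02 in WT 3D. In 2D culture the signals were 9.83, 9.83, 9.77, 9.77, 9.18 and 9.35 in ErbB2* cells, against 9.69, 9.28, 9.41, 9.25, 9.61 and 9.69 in WT cells. The 6 ErbB2* 3D arrays lay above every array of the other groups, which overlapped each other. In order of their means the groups ran ErbB2* 3D, ErbB2* 2D, WT 2D and WT 3D.

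In 3D ACTA2 was 2.08-fold higher in ErbB2* cells (1.05, SE 0.13, adjusted p = 1.98e-06). In 2D the difference between the lines was 0.13 (95% interval -0.123 to 0.389, adjusted p = 0.667). In ErbB2* cells ACTA2 rose by 0.63 in 3D relative to 2D (SE 0.124, adjusted p = 0.000655). In WT cells the culture difference was -0.29 (adjusted p = 0.111), and the interaction passed (0.92, SE 0.179, adjusted p = 0.00121). Without WT 3D replicate 5 these values were 1.01, 0.13, 0.63, -0.24 and 0.87, each on the same side of the threshold. Under median scaling the 3D line difference was 1.67 (adjusted p = 0.00518), and the ErbB2* culture and interaction calls did not pass. With replicate 5 also left out, the ErbB2* culture call passed under that scaling and the interaction did not. ACTA2 and TAGLN, which both mark myoepithelium, gave Pearson r = -0.287 over 22 arrays that share 4 groups.

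Markers of other cell types were read beside ACTA2. Of 10 fibroblast markers 6 had a tested probe, and their summed linear signal was 10031 to 11820 in ErbB2* 3D, 2685 to 3519 in WT 3D (3248 to 3519 without replicate 5), 5632 to 6185 in ErbB2* 2D and 3737 to 3990 in WT 2D. In 3D 3 of these 6 were higher in ErbB2* cells than in WT (POSTN 2.13, DCN 1.88 and LUM 1.19) and 1 was lower, against 10.7% and 9.88% of all genes. In 2D 1 was higher (DCN 0.78) and 2 lower (POSTN -1.97 and FAP -1.30), against 7.22% and 4.9%, so POSTN had opposite signs in the 2 cultures. These 3 also passed in 3D under median scaling. LUM was detected on at most 6 arrays and may have passed the detection filter only through arrays where it was high. Its calls are therefore no support for a rise. In ErbB2* cells 4 of the 6, LUM among them, were higher and 0 lower in 3D than in 2D, led by POSTN (4.90). Over all genes 9.56% were higher and 11.4% lower there. The defining fibroblast collagen COL3A1 was detected on 0 arrays, and COL1A2, PDGFRB and THY1 on too few to be tested. Of 9 smooth muscle markers only SMTN and MYOCD were tested, and DES was detected on 0 arrays. Their sum was 576 to 721 in ErbB2* 3D, 109 to 582 in WT 3D (477 to 582 without replicate 5), 288 to 375 in ErbB2* 2D and 461 to 1152 in WT 2D. SMTN, the actin-binding smoothelin, was lower in ErbB2* cells in 2D (-1.30, adjusted p = 0.014) and higher in 3D than in 2D in ErbB2* cells (1.13, adjusted p = 0.0233). Neither SMTN call passed under median scaling (-1.06, adjusted p = 0.237, and 0.98, adjusted p = 0.218). In 3D neither passed between the lines with limma, and 1 of the pair had an unadjusted p under 0.05. The part of these markers in the ACTA2 difference was not tested.

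ACTN1, the nonmuscle alpha-actinin that crosslinks stress fibres, varied little. Its probe (ILMN_2232177) gave 11.85 to 12.20 in ErbB2* 3D (median 11.97), against 11.95, 11.72, 11.80, 11.81 and 12.20 in WT 3D. In 2D it gave 11.54 to 12.29 in ErbB2* cells (median 12.05), against 12.02 to 12.59 in WT cells (median 12.34). WT 2D was the highest group, with overlap of each group with its neighbours. In WT cells ACTN1 was lower in 3D than in 2D (-0.45, SE 0.132, adjusted p = 0.0167), and the 2 groups did not overlap without replicate 5 (-0.52, adjusted p = 0.00353). In ErbB2* cells the culture difference was 0.0018 (95% interval -0.259 to 0.262, adjusted p = 0.996). Without replicate 5 the 2D line difference (-0.33, adjusted p = 0.0449) and the interaction (0.52, adjusted p = 0.0385) passed. With all arrays they did not (adjusted p = 0.107 and 0.125). The promoter with a CArG box and an MCAT element printed above is 1 of 4 ACTN1 windows.

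MYL9, a regulatory light chain of myosin II, was close to background. Its tested probe (ILMN_1675062) gave 4.66 to 5.30 in ErbB2* 3D (median 5.07), against 4.57, 4.83, 4.67, 5.07 and 4.67 in WT 3D. The 2D values were 4.99 to 5.33 in ErbB2* cells (median 5.17), against 5.22 to 5.81 in WT cells (median 5.51). It was detected on 2 of 6, 0 of 5, 3 of 6 and 6 of 6 arrays in that order, so WT 2D was the only group with signal above background on every array. The WT 3D and WT 2D arrays did not overlap, and MYL9 was lower in WT 3D (-0.75, adjusted p = 0.00015; -0.14, adjusted p = 0.00943, in the authors' deposited values). WT 3D has only a bound, and the bound gave no fold above 1 with all arrays and at least 1.25-fold without replicate 5. In 2D the line difference was -0.35 (adjusted p = 0.0783), and it passed without replicate 5 (adjusted p = 0.04). The interaction was 0.64 (SE 0.176, adjusted p = 0.0201) and rests on the WT 3D values below background. That call was lost without background correction (0.25), under median scaling (0.59, adjusted p = 0.242) and in the authors' deposited values (0.12, adjusted p = 0.147).

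Tropomyosins wind along actin filaments and set which motors and severing factors gain access to them. TPM1 probe 1 (ILMN_2360710) gave 10.13 to 10.29 in ErbB2* 3D (median 10.23), against 11.08, 10.93, 10.85, 10.89 and 6.48 in WT 3D. Its 2D arrays gave 8.95 to 9.33 in ErbB2* cells (median 9.10), against 9.91 to 10.05 in WT cells (median 9.95). Apart from WT 3D replicate 5, at 6.48, the 4 groups did not overlap and ran WT 3D, ErbB2* 3D, WT 2D and ErbB2* 2D. Probe 2 gave the same order, with 9.49 to 9.77 in ErbB2* 3D (median 9.62), against 10.31, 10.38, 10.41, 10.29 and 5.99 in WT 3D. In 2D probe 2 gave 8.10 to 8.73 in ErbB2* cells (median 8.32), against 9.14 to 9.27 in WT cells (median 9.25).

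With all 23 arrays no difference of these TPM1 probes passed, and the SE was 0.488 to 0.521 in the comparisons of a pair of groups. Without replicate 5 probe 1 was lower in ErbB2* cells in 2D (-0.84, adjusted p = 2.35e-08) and in 3D (-0.72, adjusted p = 1.42e-06). It was higher in 3D than in 2D by 1.08 in ErbB2* cells (adjusted p = 2.8e-10) and by 0.97 in WT cells (adjusted p = 1.58e-08). Probe 2 gave -0.90, -0.73, 1.29 and 1.12 in the same comparisons. The interaction of probe 1 was 0.12 without replicate 5 (95% interval -0.134 to 0.369, adjusted p = 0.573), so a difference in the culture effect between the lines was not shown. With all arrays the 3D line difference had the opposite sign (0.17 and 0.14, adjusted p = 0.85 and 0.87), so TPM1 between the lines in 3D turns on this array. In the authors' deposited values that array lay within the range of the other WT 3D arrays for probe 1 and 0.21 above it for probe 2. The 3D line difference there was -0.69 for both.

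TPM1 probes 3 and 4 lay near background. Probe 3 was detected on 3 of 6 ErbB2* 3D, 1 of 5 WT 3D, 0 of 6 ErbB2* 2D and 2 of 6 WT 2D arrays, and no difference passed. Probe 4 was detected on 2, 3, 0 and 0 arrays. It was higher in WT 3D than in WT 2D (adjusted p = 0.0166), where it was below background throughout, and the bound was at least 1.002-fold, or 1.10-fold without replicate 5. Probe 4 passed the detection filter only through 3D arrays. Its call of higher in 3D is therefore partly set by that filter and is no support for a rise.

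TPM2 encodes beta-tropomyosin. Probe 1 (ILMN_1789196) gave 13.07 to 13.33 in ErbB2* 3D (median 13.23), against 12.78, 12.81, 12.82, 12.79 and 13.28 in WT 3D. In 2D culture the signals were 12.90 to 13.23 in ErbB2* cells (median 13.04), against 12.76 to 13.27 in WT cells (median 12.96). Without replicate 5 every ErbB2* 3D array lay above every WT 3D array, and replicate 5 lay among the ErbB2* 3D arrays. Probe 2 gave 12.66 to 12.95 in ErbB2* 3D (median 12.84), against 12.15, 12.31, 12.16, 12.19 and 13.07 in WT 3D. In 2D probe 2 gave 12.24 to 12.69 in ErbB2* cells (median 12.32), against 12.22 to 12.74 in WT cells (median 12.43).

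In 3D TPM2 probe 2 was higher in ErbB2* cells (0.44, SE 0.148, adjusted p = 0.0424; without replicate 5, 0.61, adjusted p = 0.000239). Probe 1 missed the threshold with all arrays (0.32, adjusted p = 0.0514) and passed without replicate 5 (0.42, adjusted p = 0.00372). Probe 2 was also higher in 3D than in 2D in ErbB2* cells (0.45, SE 0.141, adjusted p = 0.0292), where probe 1 gave 0.17 (adjusted p = 0.33). The interaction of probe 2 passed without replicate 5 (0.72, adjusted p = 0.00158) and not with it (0.55, adjusted p = 0.0935). Over the 22 other arrays the 2 probes correlated at r = 0.364, and at -0.596 after the group means were removed. These arrays share 4 groups. Probe 3 lay between 4.54 and 6.17 and no difference passed.

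CALD1 encodes caldesmon, which binds actin, myosin and tropomyosin and inhibits the motor. Probe 1 (ILMN_1730487) gave 10.76 to 11.17 in ErbB2* 3D (median 10.91), against 11.63, 11.75, 11.43, 11.49 and 10.80 in WT 3D. In 2D it gave 10.66 to 10.95 in ErbB2* cells (median 10.73), against 10.97 to 11.20 in WT cells (median 11.10). The lines did not overlap in 2D, and in 3D they overlapped only through WT 3D replicate 5. In 3D CALD1 probe 1 was lower in ErbB2* cells (-0.47, SE 0.132, adjusted p = 0.0162; without replicate 5, -0.62, adjusted p = 4.76e-05). Under median scaling with all 23 arrays the sign turned (0.11, adjusted p = 0.881). With replicate 5 also left out, the probe was lower and passed under that scaling. The 2D line difference passed without replicate 5 (-0.32, adjusted p = 0.0126; with it, adjusted p = 0.129). So did the rise in 3D relative to 2D in WT cells (0.47, adjusted p = 0.000915; with it 0.32, adjusted p = 0.0849).

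CALD1 probe 2 gave 9.13 to 9.60 in ErbB2* 3D (median 9.22), against 10.34, 9.99, 10.23, 10.0002 and 6.73 in WT 3D. The 2D values were 8.71 to 9.70 in ErbB2* cells (median 9.31), against 9.31 to 10.15 in WT cells (median 9.80). With all arrays no difference passed. Without replicate 5 probe 2 was lower in ErbB2* cells in 2D (-0.54, adjusted p = 0.0126) and in 3D (-0.85, adjusted p = 0.000519). Probe 3 lay between 4.61 and 6.52, no difference passed, and its r with probe 1 was -0.264 over 22 arrays, which share 4 groups, and that of probes 1 and 2 was 0.741. After the group means were removed these were 0.151 and 0.143.

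CNN2 and CNN3 encode nonmuscle calponins, which bind actin and restrain its sliding over myosin. CNN2 probe 1 (ILMN_1770290) gave 9.76 to 10.22 in ErbB2* 3D (median 9.91), against 11.08, 10.68, 10.82, 10.96 and 10.87 in WT 3D. Its 2D arrays gave 10.02 to 10.28 in ErbB2* cells (median 10.19), against 10.48 to 11.04 in WT cells (median 10.73). Every ErbB2* array lay below every WT array, whatever the culture. CNN2 was lower in ErbB2* cells in 3D (-0.95, SE 0.115, adjusted p = 1.5e-06) and in 2D (-0.57, SE 0.11, adjusted p = 0.000798). These values were -0.96 and -0.57 without replicate 5, and neither passed under median scaling with all 23 arrays (-0.40 and -0.31). With replicate 5 also left out, the 3D difference passed under that scaling and the 2D difference did not. The interaction of -0.38 did not pass (adjusted p = 0.138), so the line difference was not shown to depend on culture.

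CNN2 probe 2 gave 5.83 to 7.37 in ErbB2* 3D (median 6.29), against 7.78, 7.23, 6.98, 7.46 and 5.77 in WT 3D. In 2D culture the signals were 6.22 to 7.41 in ErbB2* cells (median 6.58), against 7.31 to 8.23 in WT cells (median 7.77). The groups overlapped in both cultures. It was lower in ErbB2* cells in 2D (-1.10, SE 0.297, adjusted p = 0.0167; -0.50 in the authors' deposited values). In 3D it passed only without replicate 5 (-0.96, adjusted p = 0.0105, against -0.63, adjusted p = 0.174, with it). The CNN2 promoter with its CArG box, printed above, was the only CNN2 window in the tables.

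CNN3 (ILMN_1782439) gave 8.87 to 9.38 in ErbB2* 3D (median 9.15), against 8.90, 8.93, 8.91, 8.78 and 9.59 in WT 3D. In 2D it gave 9.29 to 9.65 in ErbB2* cells (median 9.48), against 9.95 to 10.41 in WT cells (median 10.08). WT 2D stood above every other array, and the 3D groups overlapped. In 2D CNN3 was 1.58-fold lower in ErbB2* cells (-0.66, SE 0.131, adjusted p = 0.00123). In WT cells it was 2.16-fold lower in 3D than in 2D (-1.11, SE 0.137, adjusted p = 2.33e-06; without replicate 5, -1.25). In ErbB2* cells the culture difference was -0.33 (adjusted p = 0.0924), and it passed without replicate 5 (adjusted p = 0.0166). The fall in 3D was larger in WT cells, with an interaction of 0.78 (SE 0.19, adjusted p = 0.00842). In 3D the line difference was 0.12 (adjusted p = 0.555). Under median scaling the 2D line and interaction calls did not pass with all 23 arrays, but did once replicate 5 was left out.

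**Figure D3:**
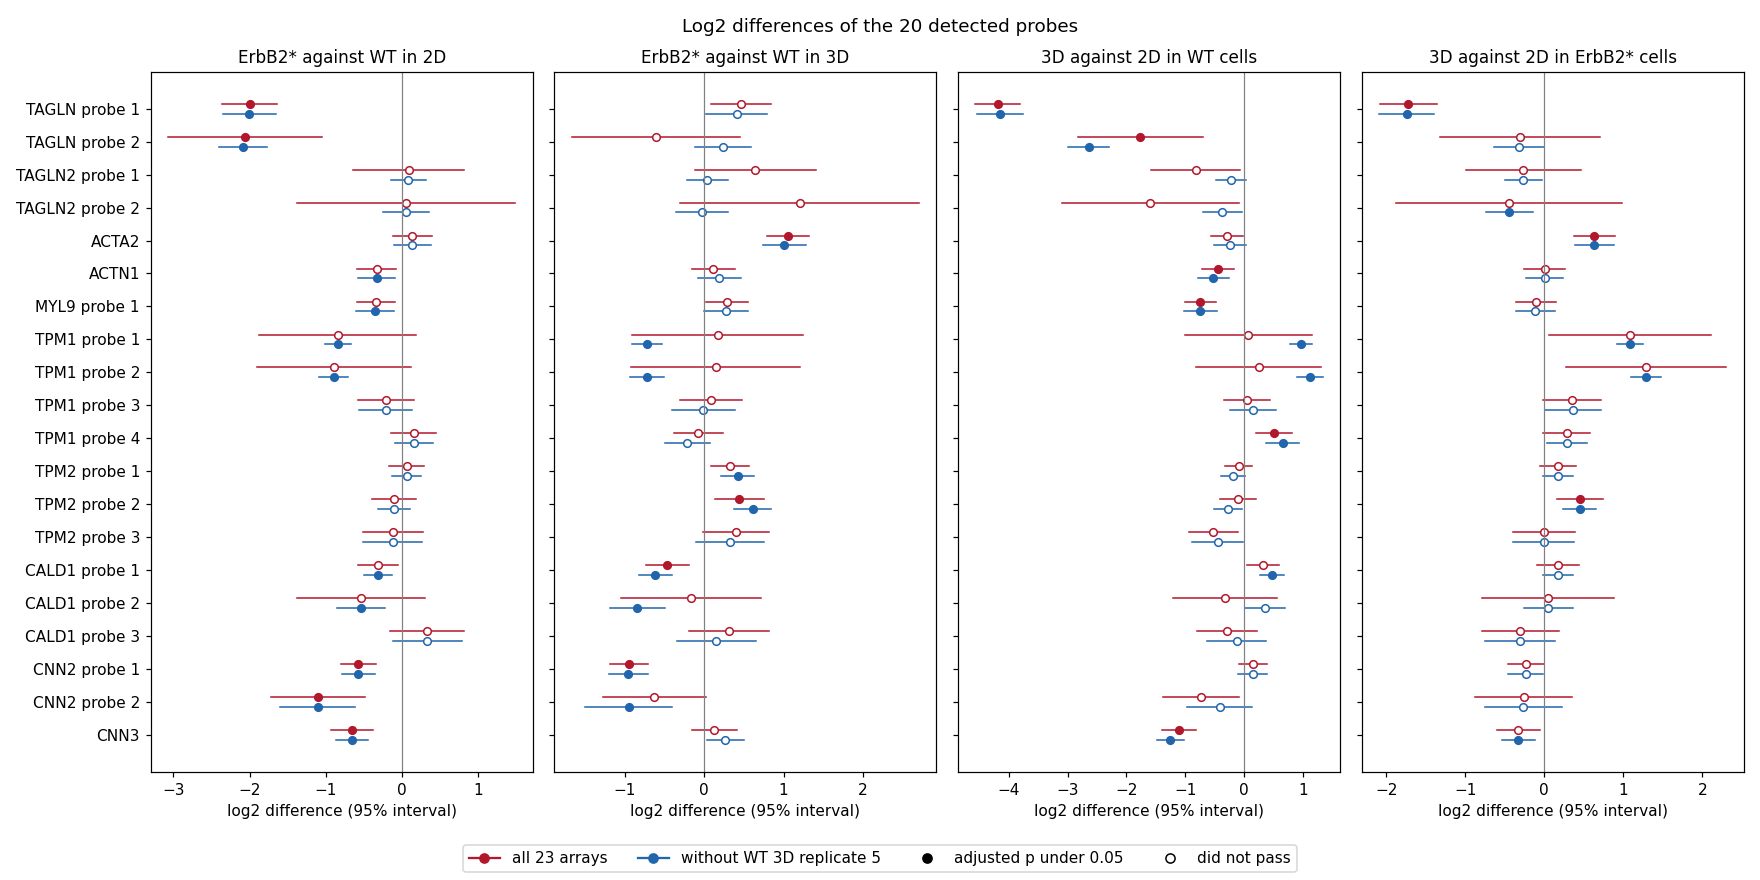
Log2 difference and 95% interval of each of the 20 detected probes in 4 comparisons, ErbB2* minus WT in 2D and in 3D and 3D minus 2D in WT and in ErbB2* cells, with all 23 arrays (red) and without WT 3D replicate 5 (blue). Filled points have an adjusted p under 0.05. The TPM1 and TAGLN2 intervals narrow without replicate 5, and TAGLN probe 1 in WT cells reaches -4.19.

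Counted by comparison, the called probes were all lower in ErbB2* cells in 2D. Of the 20 probes 5 were lower in ErbB2* 2D than in WT 2D and 0 were higher, against a background of 9.96% of all 17689 probes called in either direction, 5.78% higher and 4.17% lower. The called probes were those of TAGLN, CNN2 and CNN3. The median over the 20 probes was -0.33, against 0.0046 over all tested probes. Without WT 3D replicate 5, which is in neither group but enters the shared spread, 11 were lower and 0 higher, against 18.8% called and 8.84% lower over all probes. TPM1, CALD1, ACTN1 and MYL9 joined them. Under median scaling only the 2 TAGLN probes remained called, and the median of all probes moved to 0.17. With replicate 5 also left out, 6 were lower and 0 higher under that scaling.

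In 3D the line difference was mixed. ACTA2 and TPM2 probe 2 were higher in ErbB2* 3D than in WT 3D and CALD1 probe 1 and CNN2 probe 1 were lower. These 4 of 20 probes stand against 17.6% called over all probes, 9.59% higher and 7.97% lower, with medians of 0.15 over the 20 and 0.053 over all. Without replicate 5 there were 3 higher and 6 lower, against 23.2% called, 11.6% in each direction. Under median scaling with all 23 arrays 3 were higher (ACTA2 and TPM2 probes 1 and 2) and 0 lower, and the median of all probes was 0.35. The CALD1 and CNN2 calls were lost there. They returned under median scaling once replicate 5 was left out (3 higher and 6 lower).

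In WT cells 6 of 20 probes passed between 3D and 2D culture, against 23.5% of all probes, 10.6% higher and 12.9% lower. TPM1 probe 4, which passed the detection filter only through 3D arrays, was higher in 3D. TAGLN probes 1 and 2, ACTN1, MYL9 and CNN3 were lower in 3D. The median was -0.31, against -0.080 over all probes. Without replicate 5 there were 4 higher and 5 lower, against 28.2% called, 13.9% higher and 14.3% lower, and the added probes were TPM1 probes 1 and 2 and CALD1 probe 1. Under median scaling 0 were higher and 4 lower (TAGLN probes 1 and 2, MYL9 and CNN3), with a median of -0.31 over all probes. With replicate 5 also left out, 4 were higher and 5 lower under that scaling.

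In ErbB2* cells 3 of 20 probes passed between 3D and 2D, against 17.9% of all probes, 8.19% higher and 9.67% lower. ACTA2 and TPM2 probe 2 were higher and TAGLN probe 1 lower in 3D. The median was -0.0017, against -0.023. Without WT 3D replicate 5, which is in neither group, 4 were higher and 3 lower, against 31.2% called, 14.6% higher and 16.5% lower, as TPM1 probes 1 and 2, TAGLN2 probe 2 and CNN3 were added. Under median scaling only TAGLN probe 1 passed, and the median of all probes was -0.13. With replicate 5 also left out, 3 were higher and 4 lower under that scaling.

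The interaction, the culture change in ErbB2* cells minus that in WT cells, passed for 4 of 20 probes, against 11.1% of all probes. All 4 (TAGLN probe 1, ACTA2, MYL9 and CNN3) were positive, against 5.4% positive and 5.74% negative over all probes. For TAGLN, MYL9 and CNN3 the culture change was negative in both lines and more so in WT cells, while for ACTA2 it had opposite signs. There were 7 positive and 0 negative without replicate 5, against 17.4% called, 8.24% positive and 9.12% negative. TAGLN probe 2, ACTN1 and TPM2 probe 2 were added. The interaction shares its arrays with the 4 comparisons above. Under median scaling TAGLN probe 1 (2.22) and TAGLN probe 2 (1.89, adjusted p = 0.00114) were positive and 0 negative, so the ACTA2, MYL9 and CNN3 calls were lost. With replicate 5 also left out, 3 were positive and 0 negative under that scaling, and the CNN3 call returned.

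**Figure D4:**
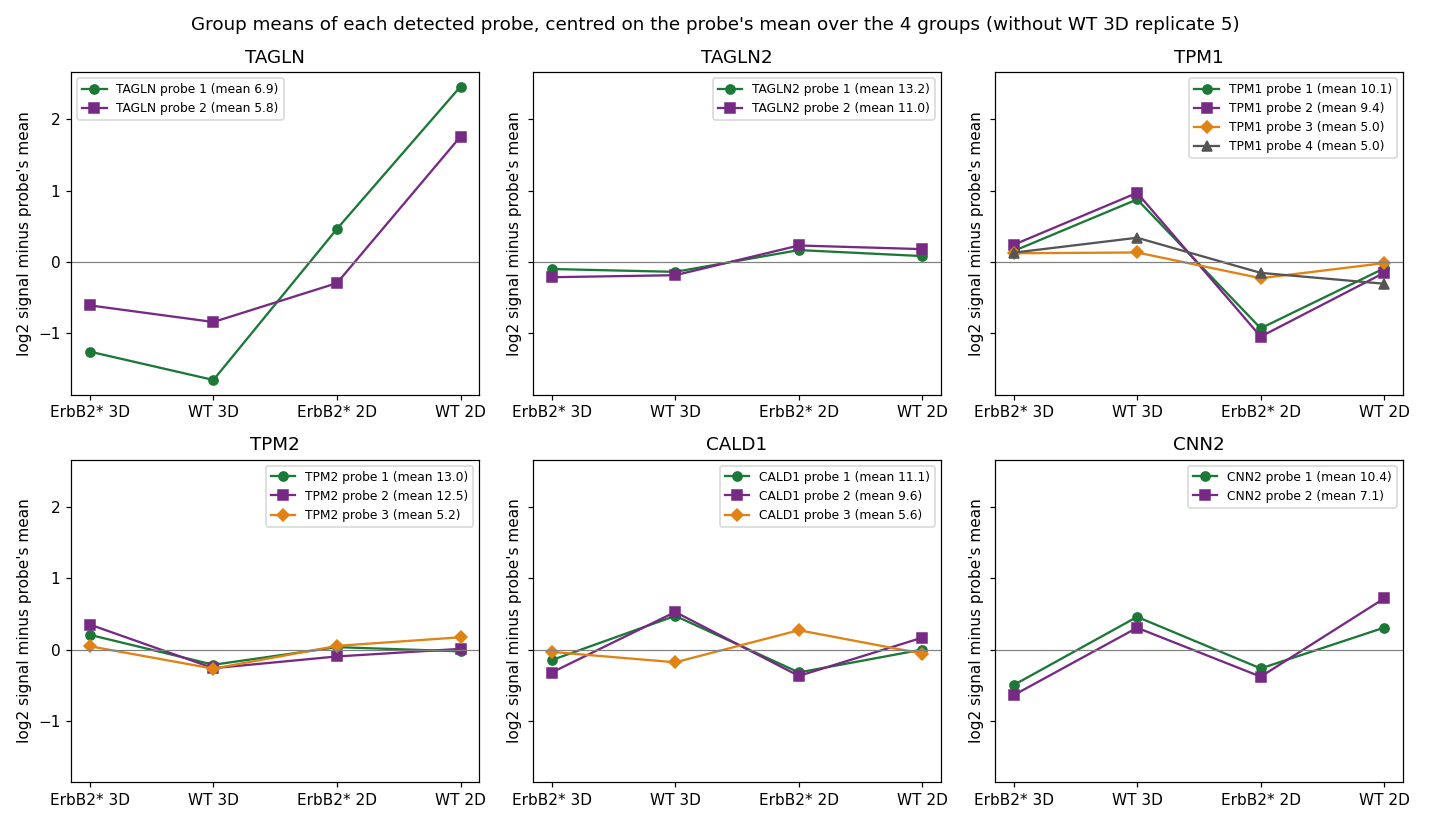
Group means minus the probe's mean over the 4 groups, in log2 units and without WT 3D replicate 5, for each detected probe of the 6 genes with more than 1. The probes of TPM1 numbered 1 and 2 follow each other, with r = 0.966 over 22 arrays (-0.124 once group means are removed), and TPM1 probes 3 and 4 span less than those.

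The genes whose signal followed each member most closely were taken from all tested probes with a gene symbol, by Pearson's r over the 22 arrays other than WT 3D replicate 5. These arrays share 4 groups, so the values describe group profiles. For TAGLN they were EPCAM (0.952), CNN3 (0.942), NMU (0.941), SCARA3 (0.939) and DMBT1 (0.938). EPCAM, an epithelial adhesion molecule that is in the luminal marker list used below, averaged 8.07 in ErbB2* 3D, 8.37 in WT 3D, 9.15 in ErbB2* 2D and 10.87 in WT 2D. The closest gene was ZFP36 for ACTA2 (0.941), CSF1R for TPM1 (0.979), COBLL1 for CALD1 (0.938), SLC7A5 for CNN2 (0.928) and TAGLN for CNN3 (0.942). For MYL9 it was MGLL (0.855), for TPM2 UQCC1 (0.851), for ACTN1 IGF2BP2 (0.847) and for TAGLN2 TMEM109 (0.822). With all 23 arrays the TPM1 and CSF1R value was 0.376.

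Other genes of the contractile system were read from 5 lists through the brightest tested probe of each gene, adjusted over all tested probes. The share called over all 10954 genes so represented was 12.1% for the lines in 2D, 20.6% for the lines in 3D, 27.2% for culture in WT cells, 21% for culture in ErbB2* cells and 13.4% for the interaction. Split by direction, 7.22% were higher and 4.9% lower between the lines in 2D and 10.7% and 9.88% in 3D. For culture 13.2% were higher and 14% lower in WT cells and 9.56% and 11.4% in ErbB2* cells, and the interaction was positive for 5.95% and negative for 7.46%. Without WT 3D replicate 5 the shares called were 21.4%, 26.3%, 32%, 34.8% and 19.9%. In the 2D line comparison the median over all genes was 0.012, and the 5 list medians, in the order described here, were -0.23, -0.13, -0.017, -0.30 and -0.19. Under median scaling 3 of these were above 0 (0.052, 0.083 and 0.048, for myosin II, SRF factors and actin assembly).

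Of the 7 myosin II genes, the motor that pulls on actin, 6 were tested. In 2D MYH9, the main nonmuscle heavy chain, and the light chain MYL12B were lower in ErbB2* cells (-0.66, adjusted p = 0.00186, and -0.35, adjusted p = 0.016), and 0 were higher. Neither passed under median scaling (-0.38 and -0.067). In 3D MYH10 (-0.60) and MYL12B (-0.36, which turned to 0.042 under median scaling) were lower and 0 higher. In WT cells MYH9 was lower in 3D than in 2D (-0.50, adjusted p = 0.0137) and MYL6B higher (0.52, adjusted p = 0.0296; without replicate 5, 0.31, adjusted p = 0.0646; 0.068 under median scaling). In ErbB2* cells MYH10 was lower (-0.71, adjusted p = 8.93e-05) and the light chain MYL6 higher (0.39). The interaction was 0.64 for MYH9 (adjusted p = 0.0382) and -0.62 for MYH10.

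Of 12 further actin, tropomyosin, actinin, calponin and transgelin genes 6 were tested. The smooth muscle calponin CNN1 and actin ACTG2 were not among them. In ErbB2* 2D ACTN4, a nonmuscle actinin, was lower than in WT 2D (-0.60, adjusted p = 0.00434; -0.32, adjusted p = 0.76, under median scaling) and was the only call. It was higher in 3D than in 2D in ErbB2* cells (0.51, adjusted p = 0.0102), with an interaction of 0.88. TPM4 was lower in 3D than in 2D in WT cells (-1.50, adjusted p = 0.0325), and by less without replicate 5 (-0.68, adjusted p = 0.00525). In 3D 0 genes of this list passed between the lines with limma, and 2 had an unadjusted p under 0.05.

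Serum response factor SRF and its partners were all 6 tested. SRF itself was lower in ErbB2* 3D than in WT 3D (-0.56, SE 0.105, adjusted p = 0.000479), a value that was 0.020 under median scaling. In WT cells SRF was higher in 3D than in 2D (0.30, adjusted p = 0.0435; without replicate 5, adjusted p = 0.0548; -0.19 under median scaling), and in ErbB2* cells it was lower (-0.31, adjusted p = 0.0327), with an interaction of -0.61. MRTFA, a myocardin-related coactivator that actin monomers hold in the cytoplasm, was lower in ErbB2* 2D than in WT 2D (-1.10, SE 0.302, adjusted p = 0.0181). Under median scaling MRTFA did not pass (-0.91, adjusted p = 0.0853).

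Focal adhesions anchor stress fibres to the matrix, and 16 of 20 genes of their list were tested. In 2D 5 were lower and 0 higher in ErbB2* cells, among them LIMA1 (-1.42), PALLD (-1.41) and PDLIM7 (-1.29), which encode stress fibre proteins. In 3D PALLD (-1.19) and PDLIM1 (-0.60) were lower and FERMT2, an integrin activator, was higher (0.88), while under median scaling 2 were higher and 0 lower. In WT cells 1 was higher and 3 lower in 3D than in 2D. In ErbB2* cells 4 were higher and 0 lower, with LIMA1 at 1.47 and PDLIM7 at 1.09. The interaction was positive for 6 and negative for 0, led by PXN (1.22), the adaptor paxillin.

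Of 22 actin assembly and severing genes 21 were tested. In 2D the membrane linker RDX (-0.51) and the severing factor CFL1 (-0.26, but 0.0073 under median scaling) were lower in ErbB2* cells and 0 were higher, and 6 were lower without replicate 5. In 3D 0 passed between the lines with limma and 2 had an unadjusted p under 0.05, while 1 was higher and 2 lower without replicate 5. In WT cells MSN (-0.75; without replicate 5, -0.45, adjusted p = 0.0664) and TMSB4X (-0.48) were lower in 3D than in 2D. In ErbB2* cells 7 were higher and 1 lower, led by the capping proteins CAPG (0.96) and GSN (0.94). The interaction passed for the monomer-binding PFN1 (0.41). Over these lists and the marker lists the 3 largest called differences of each list and comparison came to 102, of which 40 kept their call and direction under median scaling and 102 in the authors' deposited values.

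**Figure D5:**
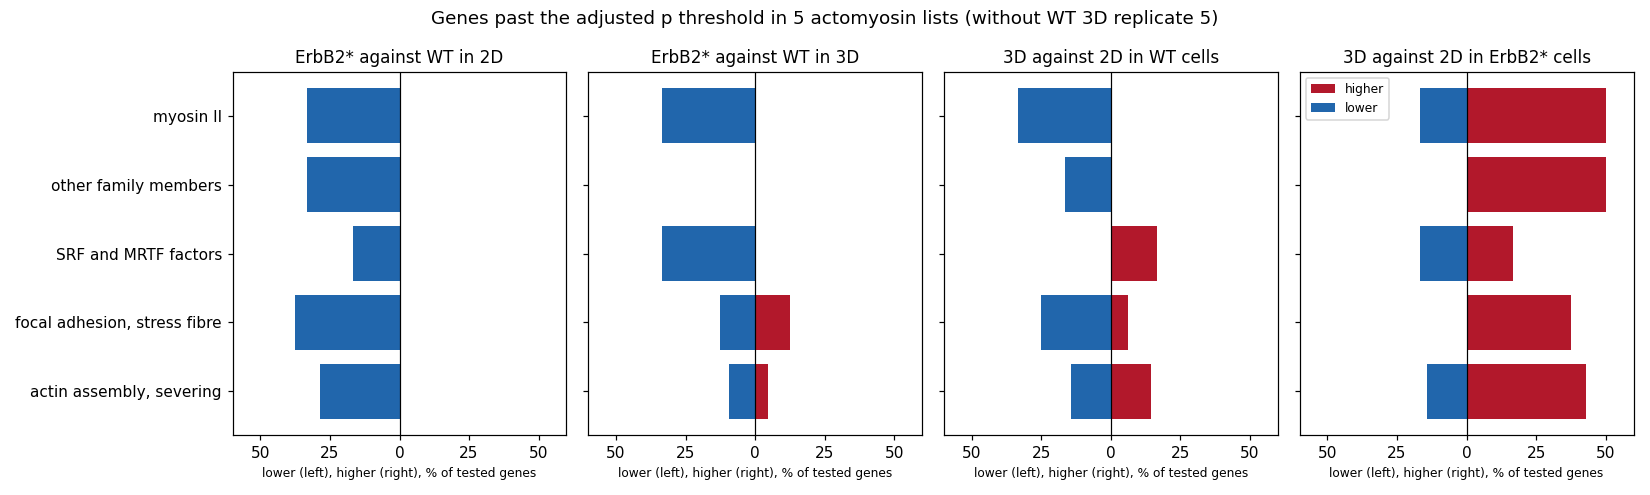
Share of tested genes higher or lower, in percent, in 5 lists of the contractile system and 4 comparisons, without WT 3D replicate 5. In the 2D comparison of ErbB2* with WT the focal adhesion list has 6 lower and 0 higher of 16, against 21.4% of all genes called in either direction. In ErbB2* cells in 3D against 2D it has 6 higher and 0 lower, against 34.8%, so that count is near the share over all genes. Shares of all genes by direction were not computed for these arrays.

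Epithelial markers also moved. All 7 tested basal mammary markers of 10 were lower in ErbB2* 2D than in WT 2D, and 5 were lower and 0 higher in 3D. Under median scaling 3 were lower in 2D and 2 in 3D. In ErbB2* cells 6 of the 7 basal markers were higher and 0 lower in 3D than in 2D, led by LAMB3 (1.498), SFN (0.91) and CDH3 (0.73), and 1 was higher under median scaling. Their summed linear signal was 12041 to 16095 in ErbB2* 3D, 20240 to 22851 in WT 3D, 7128 to 8602 in ErbB2* 2D and 16320 to 24709 in WT 2D. KRT14, a keratin of myoepithelial cells, gave -2.86 in 2D and -1.80 in 3D. Of 8 luminal markers 7 were tested, with 2 higher and 3 lower in ErbB2* 2D than in WT 2D, and 1 higher and 3 lower in WT 3D than in WT 2D. EPCAM was among the lower ones in both (-1.72 and -2.50). In 3D 2 luminal markers were higher and 1 lower in ErbB2* cells than in WT. In ErbB2* cells 1 was higher and 2 lower in 3D than in 2D, and the interaction was positive for 4 and negative for 0. Their sum was 3180 to 4577 in ErbB2* 3D, 2621 to 3100 in WT 3D, 7283 to 9125 in ErbB2* 2D and 5730 to 6551 in WT 2D, and KRT19 was detected on 0 arrays. Of 5 endothelial markers 2 were tested, of which PECAM1 was higher in ErbB2* cells in 2D (0.68) and in 3D (1.18), and CDH5 and VWF were detected on 0 arrays. Of 7 leukocyte markers 3 were tested, of which CD14 was higher in ErbB2* cells in 2D (2.07) and in 3D (1.08) and CD68 in 2D (0.53), and PTPRC and CD3E did not pass the detection filter. The part of these shifts in the TAGLN, CNN2 and CNN3 differences was not tested.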

How the data were processed

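The authors deposited, per the file headers, an average bead intensity for each of 48803 probes on each of 23 arrays, linear and not normalised between arrays, and a detection p-value beside each intensity. The authors also deposited a table of normalised values with no stated scale, its software and method not given in the sources used here. Set against the scanner signals their slopes were near 1 per log2 unit (0.948 to 1.02 on 22 arrays), so these deposited values were read as log2. They ran from 7.15 to 15.3, with array medians of 7.42 to 7.43.

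Scanner intensities were background corrected, offset by 16, quantile normalised and taken to log2 (neqc, limma 3.58.1, R 4.3.3). Figures were drawn with matplotlib 3.10.9 in Python 3.11.15. Gene names came from the platform annotation, in which 28098 probes had 1 symbol, 13 several and 20692 none, and 28059 matched a current gene. Probes with a detection p under 0.05 on at least 5 arrays were tested (17689, of which 14612 had 1 symbol).

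Groups and replicate numbers came from the sample titles. With limma, 4 group means were fitted to every probe (lmFit, contrasts.fit, eBayes), and 5 comparisons were tested two-sided, with Benjamini-Hochberg adjustment over all tested probes and a threshold of 0.05. A probe below background on every array of a group has only a bound there, set by the lowest detected signal of each array. The fitting was tested on simulated data. Members, lists and tests were chosen with earlier results of these data known. Named were every member probe, the genes most like each member and ERBB2. Called list genes were named from the 3 largest differences of each list and comparison, and not all of these are printed here. Lists covered myosin II, related family members, SRF factors, focal adhesions and actin assembly, and markers of basal, luminal, smooth muscle, fibroblast, endothelial and leukocyte cells, and 1 further list is not reported here. Alternatives were omitting the background correction, normexp (offset 50), median scaling, the deposited values, no or a stricter detection filter, the brightest probe of a gene, only the compared groups, array weights, a replicate block and each array left out. Combinations without WT 3D replicate 5, and list counts without it and under the other scalings, were added after seeing the data.

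Same-numbered samples of different groups did not deviate together (correlations of -0.164 to 0.149, with 1 of 30 over 0.1), so numbers were not taken to pair samples.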

Additional observations from a re-analysis of the deposited data

Results flagged for a closer look

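Of 80 groups of 5 or 6 arrays checked, 1 for each of the 20 probes in each group, 11 held an array far from the others by Dixon's gap test. Chance gives this in about 1 in 20 groups. Of the 11, 9 were WT 3D replicate 5. Its signal was 9.12 for TAGLN probe 2 (the others 4.78 to 4.98), 10.01 for TAGLN2 probe 1 (12.98 to 13.06), 4.65 for TAGLN2 probe 2 (10.63 to 10.97), 6.48 for TPM1 probe 1 (10.85 to 11.08) and 5.99 for TPM1 probe 2 (10.29 to 10.41). It was 13.3 for TPM2 probe 1 (12.78 to 12.82), 13.1 for TPM2 probe 2 (12.15 to 12.31), 6.73 for CALD1 probe 2 (9.99 to 10.34) and 9.59 for CNN3 (8.78 to 8.93). ErbB2* 3D replicate 2 was high for ACTA2, at 10.5, with the others between 10.14 and 10.27. ErbB2* 2D replicate 6 was high for TPM2 probe 2, at 12.7, with the others between 12.24 and 12.37.

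The culture change differed between ErbB2* and WT cells, by the interaction in limma, for TAGLN probe 1 (2.47, adjusted p = 2.78e-07), ACTA2 (0.92, adjusted p = 0.00121), MYL9 (0.64, adjusted p = 0.0201) and CNN3 (0.78, adjusted p = 0.00842). Under median scaling the ACTA2, MYL9 and CNN3 interactions did not pass (adjusted p = 0.325, 0.242 and 0.159), and in the authors' deposited values MYL9 did not (0.12, adjusted p = 0.147). With WT 3D replicate 5 also left out, CNN3 passed under median scaling and ACTA2 and MYL9 did not.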

How the results depend on the processing

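The TAGLN probe 1 calls, the ACTA2 call between the lines in 3D and the CNN3 call between cultures in WT cells held under every alternative run. The MYL9 call between cultures in WT cells held wherever its probe was tested, but the stricter filter dropped the probe. Sizes moved, as deposited values gave TAGLN probe 1 -1.94 and MYL9 -0.14 for culture in WT cells, against -4.19 and -0.75. Comparisons are given in the order lines in 2D, lines in 3D, culture in WT cells, culture in ErbB2* cells and interaction, with 5, 4, 6, 3 and 4 member probes called. Median scaling gave 2, 3, 4, 1 and 2, deposited values 10, 10, 12, 9 and 9, and array weights 11, 9, 9, 8 and 7. Only the compared groups gave 10, 2, 3 and 7 for the first 4, and the brightest probe 3 in the lines in 2D. The stricter filter, which left 14 member probes, gave 3 for culture in WT cells. Leaving out each array gave 5 to 11, 2 to 9, 5 to 9, 2 to 7 and 4 to 7, and 5 to 6, 2 to 5, 5 to 8, 2 to 3 and 4 with WT 3D replicate 5 kept (11, 9, 9, 7 and 7 without it). Without replicate 5 deposited values gave 10, 9, 10, 9 and 8, and median scaling 6, 9, 9, 7 and 3. The cause was not tested. Calls over all 17689 probes moved too, with 1761, 3106, 4160, 3158 and 1971 in the reported fit, 3666, 4671, 5577, 5667 and 3671 in deposited values, 3201, 4728, 5366, 5756 and 3305 with array weights, and 2856, 1826, 2075 and 5433 with only the compared groups. The MYL9 interaction was lost without background correction, under median scaling and in deposited values.

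The replicate block gave 5, 3, 6, 2 and 4, and 10, 9, 9, 7 and 7 without replicate 5. Since 4 of 22 arrays were closest to their own number, the block is no paired design. Over all probes median scaling called 661 higher and 214 lower between the lines in 2D (1023 and 738 otherwise), 1555 and 192 in 3D (1696 and 1410), 270 and 1516 for culture in WT cells (1880 and 2280), 435 and 869 in ErbB2* cells (1448 and 1710) and 337 and 113 for the interaction (956 and 1015).

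Signs turned for TPM1 between the lines in 3D: probe 1 was -0.69 in deposited values, -0.70 with array weights and, without replicate 5, -0.72 with the block, -0.67 in deposited values and -0.70 under median scaling. Probe 2 was -0.69, -0.72, -0.72, -0.64 and -0.70 there, and -0.049 without background correction. With arrays left out, probe 1 ran from -0.72 to 0.42, probe 2 from -0.73 to 0.38 and CALD1 probe 2 from -0.85 to 0.053. Under median scaling CALD1 probes 1 and 2 turned to 0.11 and 0.17 between the lines in 3D. In WT culture median scaling turned TPM1 probe 1 to -0.12 and CALD1 probe 1 to -0.13. None of these median-scaled signs turned once replicate 5 was also left out. In WT culture TPM1 probe 1 ran from -0.18 to 0.97 with arrays left out. TPM2 probe 2 kept its call in 12 of 23 such fits between the lines in 3D and in 15 of 23 for culture in ErbB2* cells, CALD1 probe 1 lost it in 3D without WT 3D replicate 2, and TPM1 probe 4 without WT 3D replicate 4. Probes near background (MYL9, TAGLN probe 2, TPM1 probes 3 and 4) are limited by signal.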
